A study of Mus musculus with 24 samples.

Results

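The difference between cortical and hypothalamic neural stem cells in their response to dexamethasone was measured over all 24 RNA-seq libraries of the study. Neurospheres are free-floating balls of dividing neural precursors, here grown from mouse cerebral cortex or hypothalamus taken at embryonic day 14.5. At passage 3 they received 100 nM dexamethasone (dex), a synthetic glucocorticoid, or ethanol vehicle for 4 hours. The 8 groups were female and male cortex with dex and with vehicle, and female and male hypothalamus with dex and with vehicle, with 3 replicates each, so that each region had 6 dex and 6 vehicle libraries. A dex and a vehicle library of the same region, sex and replicate number are called 1 culture here, 6 in each region, and the labels do not state that they were grown together. The labels name no strain or genetic change, and they do not say whether a replicate was an embryo, a litter or a pool, so p-values measure the spread between these samples. All 24 of the 24 samples were used. For each of 13861 genes the change in cortex (dex minus vehicle) was set against the change in hypothalamus, on a log2(RPM + 1) scale, where RPM is reads per 1000000 after rescaling all libraries together. The difference is cortex minus hypothalamus, so a negative value means that a gene went lower, or rose less, in cortex. A gene was called at an adjusted p under 0.05 from limma, and errors are standard errors (SE).

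Glucocorticoids bind the glucocorticoid receptor, a transcription factor of the nuclear receptor family that raises some genes by binding DNA at glucocorticoid response elements. It lowers others, many of them targets of AP-1 and NF-kappaB, the factors that carry growth factor, stress and inflammatory signals. In neural stem cells glucocorticoids are known for restraining proliferation and for shifting glial maturation, and embryonic brain meets them both as a maternal hormone and as a drug given before preterm birth.

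Depth was 16.39 to 20.94 M reads in genes (M, 1000000) for cortex and 16.04 to 25.49 M for hypothalamus libraries. The 4 entries that take up ribosomal reads (mt-Rnr1, mt-Rnr2, Gm26924 and Lars2) held 1.28% to 2.99% of the reads of cortex libraries and 30.4% to 42.8% of those of hypothalamus libraries, and without them 16.03 to 20.61 M and 10.13 to 15.96 M reads were left. This difference in composition runs with the region in all 24 libraries, so region and composition cannot be told apart in any comparison of levels between regions. Each response was taken between a dex and a vehicle library of 1 region, but the ribosomal share also moved with treatment. It was lower with dex in every cortex culture (1.28% to 2.23%, against 2.01% to 2.99% with vehicle) and moved both ways among hypothalamus cultures. The part of this share in the responses was not tested. The neural stem cell markers passed the filter in 12 of 12 cases, and their summed level was 7626 to 9305 RPM in cortex and 8652 to 11130 RPM in hypothalamus libraries. None of 9 microglial and none of 6 erythroid markers passed it, with sums of at most 1.38 and 1.66 RPM in any library. Lhx2, a LIM-homeodomain factor of cortical progenitors, had 21.5 to 43.6 RPM (median 27.8) in cortex dex libraries and 22.9 to 45.1 RPM (median 32.8) in cortex vehicle libraries. In hypothalamus libraries Lhx2 had at most 8.52 RPM with dex and 9.26 RPM with vehicle. Emx2, a homeodomain factor of the dorsal forebrain, had 14.7 to 25.7 RPM in cortex and 0.166 to 12.2 RPM in hypothalamus libraries with dex, against 14.5 to 18.7 and 0.146 to 10.3 RPM with vehicle, so for both genes the regions did not overlap. Emx1, which marks dorsal progenitors in the embryo, was at or near 0, with at most 0.0573 RPM in any cortex library. Of 5 cortex identity genes tested, 4 were higher in cortex and 1 lower with vehicle, and 5 were higher with dex. Lmo3, the member lower with vehicle, had 28.8 to 38.6 RPM in cortex and 39.4 to 59.2 RPM in hypothalamus vehicle libraries. The defining hypothalamic factors Nkx2-1, Rax, Six6, Otp, Sim1, Isl1 and Nkx2-4 were under the filter, and in hypothalamus libraries the highest value of any of them was 0.437 RPM (Nkx2-1). Six3, a factor of the anterior forebrain, and Foxd1, a forkhead factor of the ventral diencephalon, were lower in cortex than in hypothalamus with vehicle by log2 differences of -1.65 and -1.86. Hypothalamus vehicle libraries ranged from 0.219 to 15.0 RPM for Six3 and from 0 to 9.7 RPM for Foxd1. Cortex vehicle libraries had at most 2.9 and 0.0564 RPM, so the regions overlapped for both genes. In the libraries labelled Male hypothalamus replicate 2, Xist, the RNA of the inactive X, stood at 42.2 and 47.9 RPM, against 485 to 941 RPM in female libraries and 0.225 to 0.788 RPM in the other male libraries. Without that culture the difference was called for 5045 genes.

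The response differed between the regions for 5587 of 13861 genes, a percent called of 40.3%. For 3492 of these (25.2%) the change was more positive in cortex, and for 2095 (15.1%) it was more negative. Dex changed 8057 genes in cortex (58.1%) and 4144 in hypothalamus (29.9%), and the SD of the log2 change over all genes was 0.462 in cortex and 0.273 in hypothalamus. Most differences were small: 356 genes (2.57%) had a called difference of at least 1 log2 unit. The largest of these ran lower in cortex and fell in families of early stress and growth genes, described below. Without the culture as a block in the fit, the difference was called for 2014 genes, the cortex response for 4846 and the hypothalamus response for 729. The excess of more positive over more negative differences, 62.5% of the calls, shrank to 51.3% (2702 and 2566 genes) when whole reads, recovered from the deposited values, were tested with edgeR.

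Genes were put in classes by which region was called. In cortex but not hypothalamus, with a called difference, 2159 genes rose (15.6%) and 1285 fell (9.27%). The hypothalamus change of 2153 and 1246 of these had a 95% interval within 1.5-fold of no change. In hypothalamus but not cortex, 227 genes rose (1.64%) and 463 fell (3.34%), and the cortex interval lay within 1.5-fold for 216 and 463. Both regions moved the same way with a called difference for 680 genes in which cortex moved further, 358 rising (2.58%) and 322 falling (2.32%), and for 95 in which hypothalamus moved further, 41 rising (0.296%) and 54 falling (0.39%). Both moved alike, with the interval of the difference within 1.5-fold, for 1384 genes (9.98%), of which 700 rose and 684 fell. In 501 genes (3.61%) the regions went in opposite directions, and without the culture block this held for 27. A further 177 genes had a called difference with neither region called, 2646 were called in a region with no class, and 4244 had no call. Of the 3444 genes called in cortex and not in hypothalamus, 213 had hypothalamus means under 1 RPM, where the added 1 compresses any change. Another limit is that 16 tested genes were listed at 0 in all 12 hypothalamus libraries, among them the widely used Med10 and Pdcd2, and 8 of the 16 fell in that class.

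**Figure D1:**
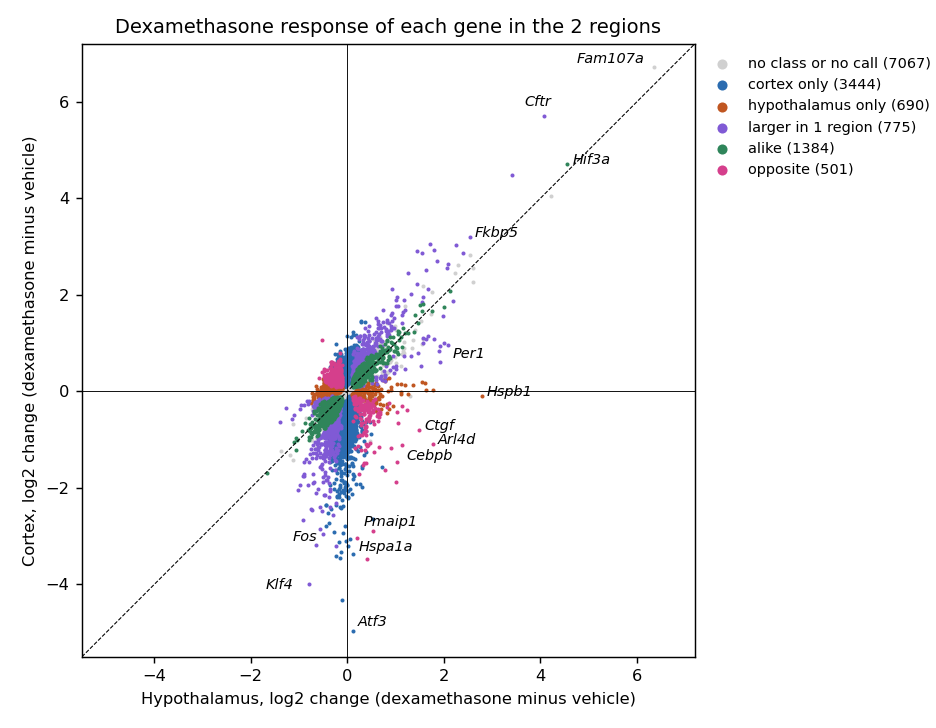
Each point is a gene, placed by its log2 change (dexamethasone minus vehicle, log2(RPM + 1)) in hypothalamus on the x axis and in cortex on the y axis, coloured by class with the number of genes in brackets; the dashed line marks equal change. The cloud is taller than wide (SD 0.462 in cortex, 0.273 in hypothalamus), with Atf3 and Fos far down the cortex axis near 0 in hypothalamus. Klf4 lies far down the cortex axis at -0.79 in hypothalamus, and Fam107a, Hif3a and Cftr lie high in both.

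Most classical glucocorticoid targets rose in each region, and some of the strongest did so to a like extent. Of 34 tested members of a list of known targets, 19 rose and 7 fell in cortex, and 26 rose and 1 fell in hypothalamus, where 34.9% and 23.2% of all genes tested rose and fell in cortex and 13.4% and 16.5% in hypothalamus. The median change was 0.78 in cortex and 1.245 in hypothalamus, beside 0.05 and -0.01 over all genes tested. Hif3a, which encodes an oxygen-regulated transcription factor subunit (chr7:17031507-17062427 in GRCm38), had 31.3, 33.7 and 49.8 RPM (lowest, median and highest of 6) in cortex with dex, against 0.115, 0.468 and 0.827 RPM with vehicle. In hypothalamus it had 19.4, 36.7 and 46.0 RPM with dex, against 0.262, 0.494 and 0.805 RPM with vehicle. Dex and vehicle libraries did not overlap in either region, and the changes of 4.71 (SE 0.14) and 4.56 (SE 0.14) differed by 0.15, with a 95% interval of -0.26 to 0.56. Under the authors' own scaling the Hif3a difference was 0.57 and was called (adjusted p = 0.0197, limma). Klf9, a Krüppel-like repressor that hormones induce, had 107, 135 and 149 RPM with dex and 29.4, 30.5 and 32 RPM with vehicle in cortex. Hypothalamus gave nearly the same levels, 130, 135 and 153 RPM with dex against 25.8, 32.1 and 34.3 RPM with vehicle. Its difference was -0.03 (interval -0.22 to 0.16). Zbtb16, a BTB zinc finger repressor, reached 78.7 RPM in cortex and 80.5 RPM in hypothalamus with dex (medians), against 4.10 and 3.00 RPM with vehicle. Its changes were 4.04 and 4.22, but the interval of the difference, -0.77 to 0.40, was too wide to call them alike.

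Fam107a, an actin-associated protein that stress and glucocorticoids induce in brain (chr14:8296274-8318023), made the largest change of all genes tested in both regions. It had 114, 133 and 177 RPM in cortex with dex, against 0.0551, 0.300 and 0.676 RPM with vehicle, and 77.2, 99.7 and 153 RPM in hypothalamus with dex, against 0.146, 0.216 and 0.943 RPM with vehicle. Every dex library lay above every vehicle library. The changes were 6.71 (SE 0.16) in cortex and 6.36 (SE 0.16) in hypothalamus, a difference of 0.36 with an interval of -0.13 to 0.84 (adjusted p = 0.229, limma). Under the authors' own scaling the difference was 0.84 and was called (adjusted p = 0.00556, limma). A second Fam107a promoter window in RefSeq, chr14:8309730-8310029 on the minus strand of GRCm38.p6, holds the letters of a glucocorticoid response element (searched on both strands as GNACA, any 3 bases and TGTNC, a pattern that is its own reverse complement), 118 bases before the start site. It is shown because it carries these letters upstream of the strongest response shared by both regions, with the match in capitals.
Fam107a: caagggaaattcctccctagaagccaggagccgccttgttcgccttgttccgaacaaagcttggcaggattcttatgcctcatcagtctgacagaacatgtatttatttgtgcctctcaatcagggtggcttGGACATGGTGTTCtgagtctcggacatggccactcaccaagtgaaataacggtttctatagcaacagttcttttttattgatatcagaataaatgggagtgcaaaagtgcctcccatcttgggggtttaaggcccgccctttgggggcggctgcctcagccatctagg
Such a match stood in the windows of 42 of 10534 tested genes with a RefSeq promoter (0.399%), in 3 of 28 listed targets (10.7%), in 3 of 157 genes raised in hypothalamus and not cortex (1.91%) and in 5 of 286 that rose further in cortex (1.75%). Genes raised in cortex and not hypothalamus had it in 7 of 1721 cases (0.407%). Genes that moved alike had it in 4 of 1104 (0.362%). These are descriptions of letters in a window of 300 bases or less and say nothing of binding.

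The largest alike changes were those of 8 genes. Besides Hif3a and Klf9 they were Tprn, the stereocilia protein taperin, Camkk1, a calmodulin-activated kinase kinase, Bcat1, which transaminates branched-chain amino acids, Diras2, a small GTPase of the Ras family, Smox, spermine oxidase, and Bcl6, a BTB zinc finger repressor. Diras2 was the one that fell, to 1.92 RPM in cortex with dex against 8.08 RPM with vehicle, and to 11.2 RPM in hypothalamus with dex against 36.5 RPM with vehicle (medians). Its changes were -1.69 and -1.67, a difference of -0.02 (interval -0.32 to 0.28), although its level in cortex was lower by a log2 difference of 1.96 with vehicle. That equality depends on the added constant: with 5 RPM added in place of 1 the difference was 0.43 (adjusted p = 0.00808, limma). Camkk1 (1.67 and 1.75), Bcat1 (1.82 and 1.57), Smox (1.80 and 1.5), Bcl6 (1.58 and 1.41) and Tprn (1.76 and 2.01) rose in both regions. For Smox the difference of 0.30 was close to the threshold (adjusted p = 0.0541, limma) and was called without Female cortex replicate 2 (0.34, adjusted p = 0.0343, limma). The Tprn difference was called with edgeR (-0.34, adjusted p = 0.0188), with DESeq2 (-0.33, 0.0281) and by limma without Male hypothalamus replicate 2 (-0.32, 0.027), so its place among the alike genes depends on the method. The receptor gene itself, Nr3c1, fell slightly in both, by 0.21 in cortex and 0.22 in hypothalamus, with a difference of 0.01 (interval -0.13 to 0.15). Its hypothalamus call was lost without the culture block (adjusted p = 0.102, limma).

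Another group of induced genes rose further in cortex. Cftr, a chloride channel (chr6:18170687-18322768), had 62.9, 74.6 and 99.8 RPM in cortex with dex, against 0.335, 0.446 and 0.745 RPM with vehicle. In hypothalamus it had 20.6, 29.6 and 39.7 RPM with dex, against 0.221, 0.678 and 2.93 RPM with vehicle. It rose in every culture of both regions, and no cortex culture's ratio (5.19 to 6.13) overlapped those of hypothalamus (3.33 to 4.56). The changes of 5.71 and 4.08 differed by 1.63 (SE 0.20, adjusted p = 7.87e-06, limma). Fkbp5, the receptor co-chaperone that feeds back on glucocorticoid signalling, reached 335 RPM in cortex and 302 RPM in hypothalamus with dex, against 39.8 and 53.3 RPM with vehicle (medians), and its changes of 3.20 and 2.54 differed by 0.66 (adjusted p = 0.00258, limma). Plin4, a lipid droplet coat protein, rose by 2.92 in cortex and 1.44 in hypothalamus, Glul, glutamine synthetase, by 1.89 and 1.18, and Mfsd2a, a lysolipid transporter, by 2.87 and 2.4. The difference was called for each of these 3 genes, and without the culture block it was lost for Glul (adjusted p = 0.0829, limma) and Mfsd2a (0.301). Plin4 had medians of 7.47 and 5.62 RPM with dex in cortex and hypothalamus, against 0.160 and 1.58 RPM with vehicle.

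In contrast, 14 of the 34 listed targets had a difference that was lower in cortex and 7 one that was higher, where 15.1% and 25.2% of all genes did so. Per1, a clock gene and direct receptor target (chr11:69095217-69109960), had 57.4, 72.3 and 74.9 RPM in cortex with dex, against 30.8, 34.7 and 42.7 RPM with vehicle. In hypothalamus it had 51.8, 66.9 and 89.1 RPM with dex, against 13.3, 14.4 and 20.7 RPM with vehicle. With dex the regions overlapped, and with vehicle every cortex library was above every hypothalamus library. The changes of 0.95 (SE 0.069) and 2.08 (SE 0.069) differed by -1.13 (adjusted p = 1.55e-07, limma), the level with dex by 0.02 and the level with vehicle by 1.15. Mt2, a metallothionein that binds zinc and copper, had 84.9, 153 and 416 RPM in cortex with dex, against 102, 170 and 318 RPM with vehicle. In hypothalamus Mt2 had 98.9, 193 and 384 RPM with dex, against 29.8, 61 and 116 RPM with vehicle. The cortex change was 0.02 (adjusted p = 0.855, limma), while it rose by 1.78 in hypothalamus, and the level differed by -0.21 with dex and by 1.54 with vehicle.

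Errfi1, a feedback inhibitor of the EGF receptor, showed the same order of levels, with medians of 47.6 RPM in cortex and 65.9 RPM in hypothalamus with dex, against 46.7 and 21 RPM with vehicle. Its cortex change was 0.03, and it rose by 1.63 in hypothalamus (difference -1.61, adjusted p = 2.75e-07, limma). Rhob, an endosomal small GTPase, had 84.2, 121 and 232 RPM in cortex with dex, against 116, 121 and 130 RPM with vehicle, and 113, 162 and 222 RPM in hypothalamus with dex, against 46.7, 52.7 and 60.6 RPM with vehicle. Its cortex change was 0.19, with 0.75 and 0.99 in Female cortex replicates 2 and 3, and it rose by 1.55 in hypothalamus. Nfkbia, the inhibitor of NF-kappaB and a long-known receptor target, changed by -0.02 in cortex and rose by 1.11 in hypothalamus, and Ddit4, an inhibitor of mTOR signalling, changed by 0.26 in cortex and rose by 0.80 in hypothalamus. Dusp1, a phosphatase that turns off MAP kinases, fell by 1.58 in cortex, and the hypothalamus change of 0.31 missed the threshold (adjusted p = 0.0603, limma) though it was called with DESeq2 (0.32, adjusted p = 0.0402). Its levels were 28.9 and 22.7 RPM in cortex and hypothalamus with dex, against 76.3 and 18.6 RPM with vehicle, so the level difference was 0.00 with dex and 1.89 with vehicle. Sgk1, a kinase of salt and growth control, fell by 0.97 in cortex, and its hypothalamus change was -0.18, with a difference of -0.80 (adjusted p = 0.0709, limma) that rested on which cortex cultures were counted. It changed by 0.39 and 0.35 in Female cortex replicates 2 and 3 and by -1.23 to -1.79 in the other 4 cortex cultures, and without those 2 cultures the difference was -1.47 (adjusted p = 2.88e-07, limma).

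Hypothalamus raised several genes that cortex did not. Hspb1, a small heat-shock protein that binds actin (chr5:135887919-135889563), had 0.731, 0.937 and 1.48 RPM in cortex with dex, against 0.716, 1.10 and 2.12 RPM with vehicle. In hypothalamus it had 3.18, 7.31 and 20.1 RPM with dex, against 0, 0.267 and 0.775 RPM with vehicle. The cortex groups overlapped and the hypothalamus groups did not. The change was -0.10 (SE 0.21) in cortex and 2.79 (SE 0.21) in hypothalamus, a difference of -2.89 (adjusted p = 1.21e-06, limma). Amigo2, an adhesion protein of neurons, reached 7.34 RPM in hypothalamus with dex against 1.83 RPM with vehicle, and its changes were 0.18 in cortex and 1.62 in hypothalamus. Ccl2, a monocyte chemokine, went up in all 6 hypothalamus cultures but by uneven amounts, 0.13 to 2.2, and its difference of -1.33 was lost without the culture block (adjusted p = 0.169, limma).

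Genes that rose in both but further in hypothalamus included Gbx2, a homeobox factor of the midbrain-hindbrain border (0.61 in cortex, 1.93 in hypothalamus), and Cebpd, a C/EBP factor of the acute phase (0.84 and 1.91). Pgbd5, a transposase-derived gene (0.52 and 1.54), Rasgef1c, a Ras exchange factor (1.01 and 2.01), and Fam101b (0.94 and 1.92) had the same order. Gbx2 had 0.964 to 8.22 RPM in cortex with dex, against 0.564 to 2.56 RPM with vehicle, and 9.85 to 27.9 RPM in hypothalamus with dex, against 1.27 to 5.41 RPM with vehicle. The Gbx2 difference of -1.32 was lost without the block (adjusted p = 0.071, limma), and that of Rasgef1c with edgeR (adjusted p = 0.0581). Cspg4, the NG2 proteoglycan of oligodendrocyte precursors, also rose less in cortex, by 0.41 against 0.77 in hypothalamus.

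Opposite changes were called for 501 genes. In 342 of them cortex went up and hypothalamus down, and in 159 cortex went down and hypothalamus up; 52 of the 501 had a difference of at least 1. The 10 with the largest change in their weaker region fell in cortex and rose in hypothalamus. Cebpb, a C/EBP factor of stress, inflammation and glial genes (chr2:167688915-167690418), had 10, 11.8 and 14.0 RPM in cortex with dex, against 23.1, 25.5 and 36.1 RPM with vehicle. In hypothalamus it had 2.64, 4.27 and 6.40 RPM with dex, against 0.943, 1.14 and 2.11 RPM with vehicle. Neither region's dex and vehicle libraries overlapped. The changes were -1.12 (SE 0.12) and 1.14 (SE 0.12), a difference of -2.25 (adjusted p = 2.5e-08, limma), and cortex stayed above hypothalamus by 1.34 with dex and 3.60 with vehicle. Arl4d, a small GTPase of the ARF family (chr11:101665541-101667832), had 10.6, 11.9 and 12.9 RPM in cortex with dex, against 19.4, 26.1 and 33.2 RPM with vehicle, and 17.0, 24.7 and 48.5 RPM in hypothalamus with dex, against 4.83, 6.63 and 11.5 RPM with vehicle. The order of the regions was thus inverted between treatments: the level difference was -1.06 with dex and 1.81 with vehicle. Its changes were -1.10 and 1.77 (difference -2.87, adjusted p = 2.83e-08, limma).

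**Figure D2:**
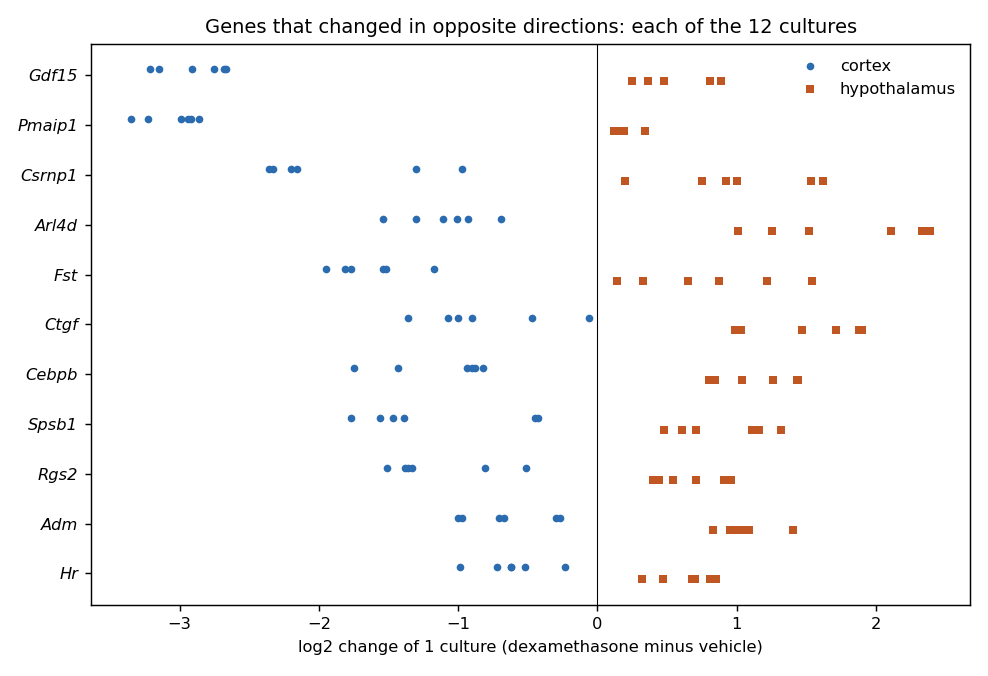
Each row is a gene called in opposite directions and each point the log2 change (dexamethasone minus vehicle) of 1 of the 12 cultures, 6 of cortex as circles and 6 of hypothalamus as squares. In every gene shown every cortex culture lies below 0 and every hypothalamus culture above it, from Gdf15 (-3.21 to -2.67 and 0.25 to 0.89) to Hr (-0.99 to -0.23 and 0.32 to 0.85).

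Csrnp1, an AXIN-regulated nuclear protein, fell by 1.89 in cortex and rose by 1.00 in hypothalamus, and Spsb1, an adaptor of ubiquitin ligases, changed by -1.18 and 0.90. Ctgf, a matricellular target of YAP, changed by -0.81 and 1.5 and Fst, the activin antagonist follistatin, by -1.63 and 0.79. Rgs2, which shortens G protein signals, changed by -1.15 and 0.66, Adm, the vasodilator peptide adrenomedullin, by -0.65 and 1.05, and Hr, a corepressor of nuclear receptors, by -0.62 and 0.64. For all of these genes the difference was called, and the 6 cortex ratios did not overlap the 6 hypothalamus ratios, as for 2714 of all genes tested (19.6%). The hypothalamus call was lost without the culture block for Fst (adjusted p = 0.0991) and Hr (0.124), and the cortex call for Adm (0.0501), all by limma. The other direction was made of smaller changes. Nr3c2, the mineralocorticoid receptor, which also binds glucocorticoids, rose by 0.46 in cortex and fell by 0.48 in hypothalamus. Hes5, a Notch effector of stem cell maintenance, changed by 0.61 and -0.34, Ptch1, the Hedgehog receptor and target, by 0.45 and -0.47, Acaca, which makes malonyl-CoA, by 0.55 and -0.10, and Ncor1, a nuclear receptor corepressor, by 0.30 and -0.18. Without the block none of these 5 was called in hypothalamus, with adjusted p-values by limma of 0.169 for Nr3c2, 0.592 for Hes5, 0.124 for Ptch1, 0.479 for Acaca and 0.164 for Ncor1, and the cortex calls of Nr3c2 (0.0791) and Hes5 (0.139) were lost too, as was the Hes5 difference (0.164).

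The promoter window of Arl4d in RefSeq, chr11:101665291-101665590 on the plus strand of GRCm38.p6, holds the full cAMP response element TGACGTCA at 26 bases before the start site. It is shown as the strongest opposite change with such a match, next to the window of Ppp1r15a (chr7:45526219-45526518, minus strand), a gene lowered in cortex and not in hypothalamus, where the same letters stand 12 bases before the start. Capitals mark the match, which reads the same on both strands.
Arl4d: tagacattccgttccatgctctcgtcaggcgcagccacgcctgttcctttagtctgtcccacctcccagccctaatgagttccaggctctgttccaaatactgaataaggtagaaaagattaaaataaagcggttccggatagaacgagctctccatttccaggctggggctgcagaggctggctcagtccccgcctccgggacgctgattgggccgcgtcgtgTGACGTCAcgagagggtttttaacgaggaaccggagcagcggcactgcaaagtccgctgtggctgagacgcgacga
Ppp1r15a: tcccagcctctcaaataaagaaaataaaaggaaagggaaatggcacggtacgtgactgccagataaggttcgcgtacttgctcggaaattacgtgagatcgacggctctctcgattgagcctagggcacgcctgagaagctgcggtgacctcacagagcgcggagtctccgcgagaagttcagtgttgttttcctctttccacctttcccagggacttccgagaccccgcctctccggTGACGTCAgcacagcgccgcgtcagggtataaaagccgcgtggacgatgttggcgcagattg
The same letters stood in at least 1 window of 390 of the 10534 tested genes with a RefSeq promoter (3.70%). They stood in 16 of 369 opposite genes (4.34%) and in 10 of 159 genes lowered in cortex and not hypothalamus by a difference of at least 1 (6.29%). Without that limit on size, 46 of 929 genes lowered in cortex and not hypothalamus had them (4.95%). The AP-1 letters TGANTCA, which do not overlap TGACGTCA, stood in at least 1 window of 614 of the 10534 genes (5.83%). They stood in 15 of those 159 genes (9.43%) and in 23 of 242 genes that fell further in cortex (9.5%). In the 929 genes without the limit on size they stood in 54 (5.81%). Among genes that rose further in cortex they stood in 23 of 286 (8.04%). None of these 3 patterns was found in the windows of Atf3, Fos, Fosb or Cebpb.

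Immediate-early transcription factors, which growth factors, depolarisation and stress switch on within minutes, fell in cortex, and fewer fell in hypothalamus. Of 28 factors tested, 27 fell and 0 rose in cortex, and 12 fell and 2 rose in hypothalamus. Over all genes, 23.2% fell and 34.9% rose in cortex, and 16.5% fell and 13.4% rose in hypothalamus. The difference was lower in cortex for 15.1% of all genes and for 27 of the 28 factors. Their median change was -2.39 in cortex and -0.29 in hypothalamus. Atf3, a stress-induced repressor (chr1:191170296-191218039), had 2.2, 2.49 and 3.91 RPM in cortex with dex, against 82.4, 121 and 130 RPM with vehicle. In hypothalamus it had 3.46, 4.98 and 7.81 RPM with dex, against 2.5, 4.58 and 8.74 RPM with vehicle. The cortex vehicle libraries stood apart from the other 18, which overlapped in part. The changes were -4.96 (SE 0.12) and 0.11 (SE 0.12), and the difference of -5.08 (SE 0.17, adjusted p = 1.42e-12, limma) was the largest of all genes tested. Fos, the AP-1 subunit (chr12:85473890-85477273), had 20.2, 21.6 and 31.7 RPM in cortex with dex, against 198, 211 and 373 RPM with vehicle, and 22.5, 38.5 and 49.6 RPM in hypothalamus with dex, against 27.1, 46.9 and 58.1 RPM with vehicle. It fell by 3.20 in cortex and by 0.24 in hypothalamus (difference -2.96, adjusted p = 9.35e-13, limma). Fosb fell by 4.33 in cortex, to 0.112 to 0.545 RPM with dex against 17.8 to 30.7 RPM with vehicle, and the hypothalamus change was -0.11.

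Klf4, a Krüppel-like reprogramming factor, changed by -3.99 and -0.79 in cortex and hypothalamus, Fosl2, an AP-1 subunit, by -3.18 and -0.66, Ier2, an early nuclear regulator, by -2.96 and -0.50, and Egr2, a zinc finger factor of myelinating and neural crest cells, by -3.33 and -0.14. Btg2, an antiproliferative gene, was the factor that passed no test of a response (-0.03 in both regions). The hypothalamus falls of Fos (adjusted p = 0.609), Fosl2 (0.0611) and Ier2 (0.137) were not called by limma without the culture block, whereas 24 of the 28 differences still were. Inhibitors that MAP kinase signalling induces against itself followed: of 17 tested, 14 fell in cortex and 6 in hypothalamus, with 0 and 1 rising, and 13 differences were lower in cortex. Of all genes, 23.2% fell in cortex and 16.5% in hypothalamus, and 34.9% and 13.4% rose. A lower difference was called for 15.1% of all genes. Dusp5, a nuclear ERK phosphatase, had 4.56 to 7.87 RPM in cortex with dex, against 24.1 to 49.7 RPM with vehicle, and 11.2 to 16.6 RPM in hypothalamus with dex, against 13.5 to 18.1 RPM with vehicle. Dusp8 fell by 2.39 in cortex and changed by -0.35 in hypothalamus (adjusted p = 0.285 without the block, limma), and Dusp2 fell by 1.65 in cortex, where the hypothalamus change was -0.01. Errfi1 was the member that rose in hypothalamus.

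**Figure D3:**
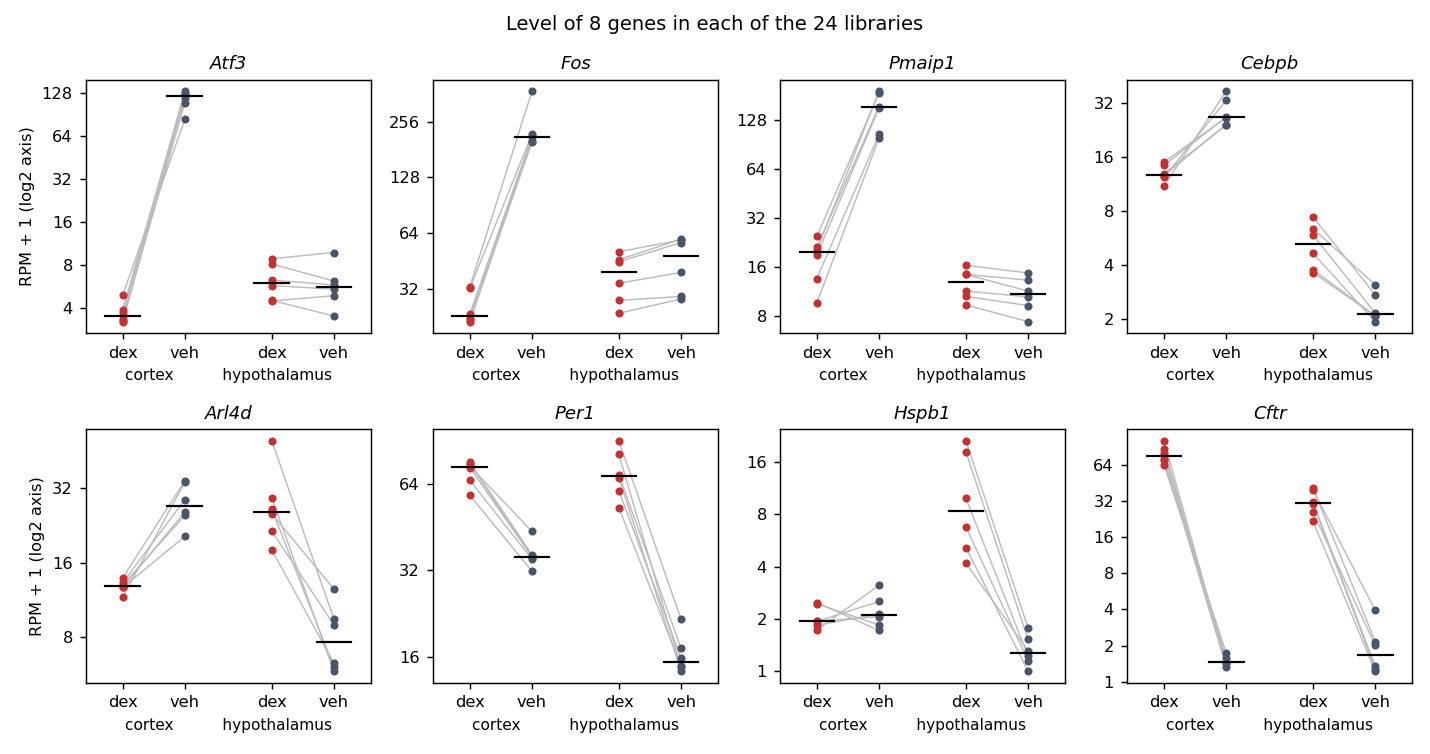
Levels (RPM + 1, log2 axis) of 8 genes in each of the 24 libraries, dexamethasone left of vehicle in cortex and then in hypothalamus; grey lines join the libraries of a culture and black bars are medians of 6. Atf3, Fos and Pmaip1 are high in cortex vehicle libraries (medians 121, 211 and 152 RPM) and low in the other 3 groups, Cebpb and Arl4d move in opposite directions, Per1 reaches like levels with dex (medians 72.3 and 66.9 RPM), Hspb1 rises in hypothalamus and Cftr rises further in cortex.

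The integrated stress response, in which ATF4 raises amino acid and redox genes when translation is held back, split in the same way. Of 22 genes tested, 19 fell and 2 rose in cortex, 4 fell and 4 rose in hypothalamus, and 20 differences were lower in cortex, with median changes of -1.15 and -0.005. Over all genes, 23.2% fell and 34.9% rose in cortex, and the hypothalamus counts were near the 16.5% and 13.4% there. A lower difference was called for 15.1% of all genes. Chac1, which degrades glutathione, had 2.12, 3.65 and 5.32 RPM in cortex with dex, against 31.5, 45.0 and 48.7 RPM with vehicle, and 2.4, 5.46 and 10.7 RPM in hypothalamus with dex, against 1.83, 5.79 and 8.99 RPM with vehicle. It fell by 3.21 in cortex, while the hypothalamus change was 0.01 (SE 0.14). Ppp1r15a, the GADD34 subunit that restores translation (chr7:45522916-45526268), had 12.4, 14.1 and 18.4 RPM in cortex with dex, against 96.2, 104 and 141 RPM with vehicle, and 10.8, 12.2 and 14.0 RPM in hypothalamus with dex, against 9.68, 13.3 and 14.7 RPM with vehicle. Its changes were -2.79 and -0.04. With dex the regions overlapped for both genes, and with vehicle they did not. Ddit3, the CHOP factor, fell by 2.56 in cortex and changed by -0.30 in hypothalamus, a call lost without the block (adjusted p = 0.186, limma), with array weights (0.0588) and without Female hypothalamus replicate 1 (0.0633), Female hypothalamus replicate 2 (0.0647) or Male hypothalamus replicate 1 (0.0602). Trib3, a pseudokinase that restrains ATF4 (-3.13 and -0.17), and Slc7a11, the cystine transporter (-2.18 and -0.22), fell in cortex and did not pass the test in hypothalamus. Psat1 and Phgdh, the serine synthesis enzymes of the list, went the other way and rose by 0.33 and 0.18 in cortex and by 0.22 and 0.20 in hypothalamus.

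Targets of p53, the factor that answers DNA damage, formed another such group. Of 16 tested, 14 fell and 1 rose in cortex, 2 fell and 6 rose in hypothalamus, 14 differences were lower in cortex, and 5 of the 16 genes went in opposite directions, against 3.61% of all genes. Among all genes, 23.2% fell and 34.9% rose in cortex, and 16.5% fell and 13.4% rose in hypothalamus. A lower difference was called for 15.1% of all genes. Pmaip1, the BH3-only death protein NOXA, had the smallest adjusted p for the difference. It had 8.67, 18.7 and 23.7 RPM in cortex with dex, against 97.8, 152 and 190 RPM with vehicle, and 8.36, 11.9 and 15.4 RPM in hypothalamus with dex, against 6.41, 9.96 and 13.7 RPM with vehicle. It fell by 3.05 in cortex and rose by 0.21 in hypothalamus (difference -3.26, SE 0.092, adjusted p = 1.83e-13, limma). The hypothalamus rise was small and was not called without the block (adjusted p = 0.618, limma), without Female hypothalamus replicate 1 (0.0713) or without Female hypothalamus replicate 3 (0.0699). Gdf15, a stress cytokine, changed by -2.90 and 0.53, and Cdkn1a, the cyclin kinase inhibitor p21, by -1.08 and 0.39. The hypothalamus calls of both were lost without the block (0.409 and 0.264). Phlda3, which restrains Akt, fell to 94.5 RPM in cortex with dex against 353 RPM with vehicle, where hypothalamus had 65.1 and 63.7 RPM (medians). Sesn1, a sestrin induced by p53 and FOXO factors, was the member that rose in cortex, by 2.22 against 1.44 in hypothalamus.

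Heat-shock genes divided within the family. Of 13 tested, 7 fell and 1 rose in cortex, and 1 fell and 4 rose in hypothalamus. Of all genes tested, 23.2% fell and 34.9% rose in cortex, and 16.5% fell and 13.4% rose in hypothalamus. Hspa1a, the inducible HSP70 (chr17:34969190-34972156), had 1.10, 2.95 and 3.12 RPM in cortex with dex, against 20.2, 35.4 and 53 RPM with vehicle, and 0.414, 0.709 and 1.24 RPM in hypothalamus with dex, against 0.262, 0.446 and 1.55 RPM with vehicle. It fell by 3.37 in cortex, and Hspa1b, a near-identical copy whose reads cannot be assigned with certainty, by 3.46. Bag3, a co-chaperone of HSP70, fell by 1.04 in cortex with a hypothalamus change of 0.10, whereas Hspb1 rose in hypothalamus as described. The Bag3 difference was lost without the culture block (adjusted p = 0.137, limma). Of 14 NRF2 antioxidant targets, 7 fell and 0 rose in cortex, and 4 fell and 2 rose in hypothalamus. Srxn1, sulfiredoxin, had 10.9, 13.9 and 15.9 RPM in cortex with dex, against 50.7, 131 and 191 RPM with vehicle, and 24.4, 35.0 and 49.7 RPM in hypothalamus with dex, against 24.8, 35.4 and 59.5 RPM with vehicle. Hmox1, heme oxygenase, fell by 2.32 in cortex, and its hypothalamus change of -0.22 was not called without the block (adjusted p = 0.363, limma).

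Endoplasmic reticulum folding genes did not follow that direction. Of 14 tested, 9 rose and 2 fell in cortex, and 1 rose and 0 fell in hypothalamus. The shares over all genes were 34.9% rising and 23.2% falling in cortex, and 13.4% and 16.5% in hypothalamus. The rises were small, such as Pdia4, a protein disulfide isomerase (0.36 in cortex, 0.07 in hypothalamus), and Dnajc3, an inhibitor of eIF2alpha kinases (0.49 and 0.15). Herpud1 and Dnajb9, which act in degradation of misfolded proteins, were the members that fell in cortex, by 1.65 and 1.27, with hypothalamus changes of 0.03 and -0.05.

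**Figure D4:**
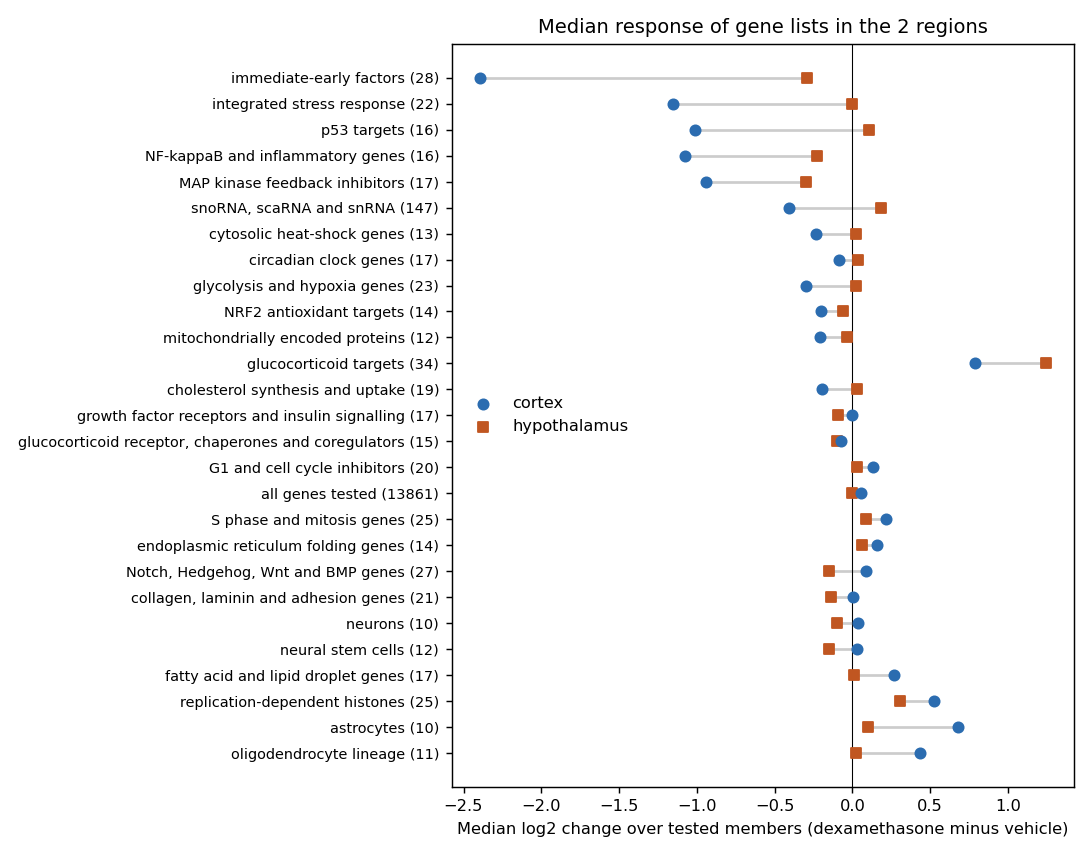
Median log2 change (dexamethasone minus vehicle) over the tested members of each gene list with at least 10 of them, in cortex (circles) and hypothalamus (squares), with the number tested in brackets and lists ordered by their median difference. Immediate-early factors have medians of -2.39 and -0.29, integrated stress response genes -1.15 and -0.005, glucocorticoid targets 0.78 and 1.245, and all genes 0.05 and -0.01.

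In 3 of these families, immediate-early factors, integrated stress response genes and p53 targets, most members were higher in cortex than in hypothalamus with vehicle, and few were with dex. The difference in response equals the level difference (cortex minus hypothalamus) with dex less that with vehicle, so the 3 are not independent. With dex, 3 immediate-early factors were higher in cortex and 11 lower, 6 stress response genes were higher and 5 lower, and 4 p53 targets were higher and 3 lower, so that 14 of 28, 11 of 22 and 7 of 16 differed, near the 53.5% of all genes (28.8% higher and 24.8% lower). Cortex vehicle libraries were above hypothalamus vehicle libraries for 25 of 28 immediate-early factors, 21 of 22 integrated stress response genes and 13 of 16 p53 targets, and below for none of them, where 56.7% of all genes differed, 27% higher and 29.7% lower. The median level difference was -0.40 with dex and 1.67 with vehicle for immediate-early factors, -0.03 and 1.02 for stress response genes, and 0.18 and 1.05 for p53 targets. Over the 1285 genes lowered in cortex and not hypothalamus, the medians were -0.03 with dex and 0.55 with vehicle. MAP kinase inhibitors (1 higher in cortex and 8 lower with dex, 8 higher and 5 lower with vehicle) and heat-shock genes (3 and 7 with dex, 5 and 6 with vehicle) had no such one-sided gap with vehicle. Of the 34 glucocorticoid targets, 7 were higher in cortex and 3 lower with dex, and 16 higher and 4 lower with vehicle. Exceptions kept a gap in both treatments, among them Jund, an AP-1 subunit (1.88 with dex, 2.74 with vehicle), Bag3 (1.62 and 2.76) and Vegfa, the vascular growth factor (1.29 and 2.16). Some crossed over: Fosl1, an AP-1 subunit, differed by -2.0 with dex and 0.35 with vehicle, and Adamts1, a secreted protease, by -1.74 with dex and 1.34 with vehicle. The part of the ribosomal share of the libraries in these levels was not tested.

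**Figure D5:**
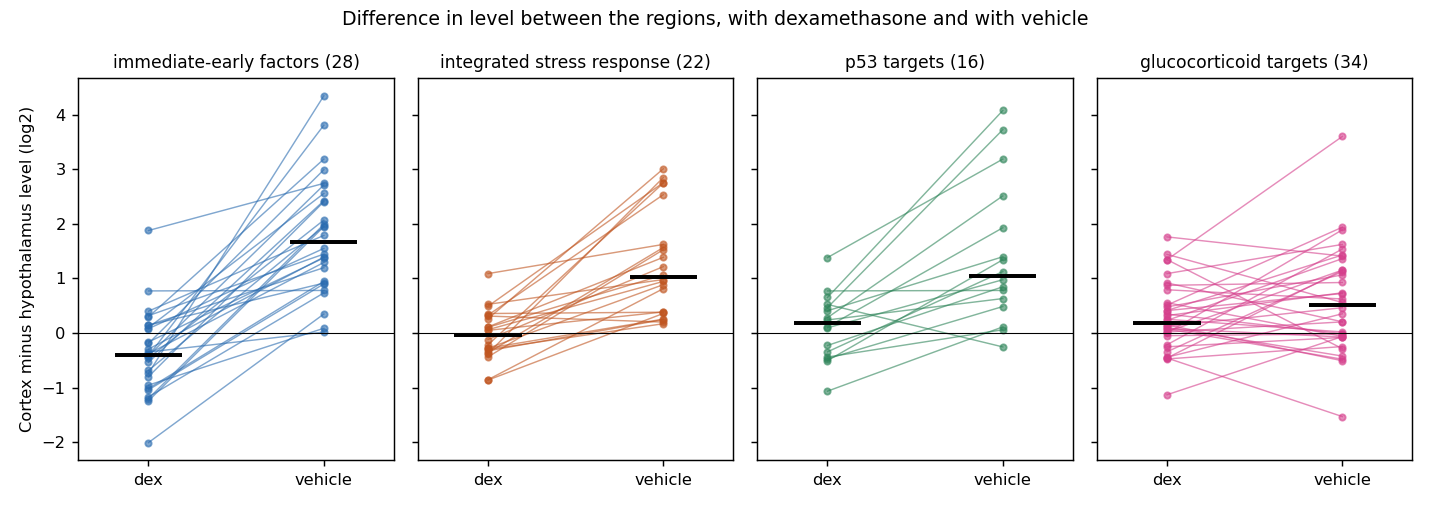
Level difference between regions (cortex minus hypothalamus, log2) for each tested member of 4 gene lists, with dexamethasone on the left and vehicle on the right; lines join the 2 values of a gene, black bars are medians and the number of genes stands in brackets. Immediate-early factors, integrated stress response genes and p53 targets have medians nearer 0 with dexamethasone (-0.40, -0.03 and 0.18) and lie mostly above 0 with vehicle (medians 1.67, 1.02 and 1.05).

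Inflammatory and metabolic genes moved in cortex too. Of 16 NF-kappaB and inflammatory genes tested, 11 fell and 2 rose in cortex, 4 fell and 2 rose in hypothalamus, and 13 differences were lower in cortex. For all 4 lists here the shares over all genes were 23.2% falling and 34.9% rising in cortex. In hypothalamus they were 16.5% and 13.4%, and 15.1% of all genes had a lower difference. Cxcl10, an interferon-induced chemokine, fell by 2.79 in cortex, to at most 0.345 RPM with dex against 4.08 to 14.6 RPM with vehicle, and its hypothalamus change was -0.44. Lif, the gp130 cytokine of stem cell renewal (-1.90 and -0.27), and Icam1, a leukocyte adhesion receptor (-1.56 and -0.02), fell in cortex. Tnfrsf12a, the TWEAK receptor, fell by 2.86 in cortex and changed by -0.56 in hypothalamus, a call lost without the block (adjusted p = 0.289, limma). Of 23 glycolysis and hypoxia genes, 17 fell and 2 rose in cortex, and 5 fell and 2 rose in hypothalamus. Slc2a1, the GLUT1 glucose carrier, fell by 0.98 in cortex (hypothalamus -0.01), Pfkfb3, which drives glycolysis, by 1.83 (hypothalamus -0.43, not called without the block), and Ankrd37, a hypoxia target, by 1.39 (hypothalamus 0.07). The Slc2a1 difference was lost without the block, as was that of Cyp51 in the next list. Cholesterol genes fell in 11 of 19 cases in cortex, where 1 rose, and in 2 of 19 in hypothalamus, where 2 rose. Cyp51, lanosterol demethylase, fell by 0.39 in cortex with a hypothalamus change of 0.08. Of 17 fatty acid and lipid droplet genes, 11 rose and 2 fell in cortex, and 6 rose and 5 fell in hypothalamus, with median changes of 0.27 and 0.01.

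Of 17 clock genes, 4 rose and 7 fell in cortex, and 5 rose and 2 fell in hypothalamus, where 34.9% and 23.2% of all genes rose and fell in cortex and 13.4% and 16.5% in hypothalamus. The difference was lower in cortex for 9 and higher for 0, where 15.1% and 25.2% of all genes had such a difference. Nfil3, a bZIP repressor of the clock output, fell by 1.76 in cortex, where hypothalamus gave 0.14. Bhlhe40 (-1.24 and -0.24) and Nr1d1, the nuclear receptor REV-ERBalpha (-1.22 and -0.35), fell further in cortex. Per2 rose alike in both, by 0.89 and 1.02. In the list of Notch, Hedgehog, Wnt and BMP genes 11 of 27 rose and 12 fell in cortex, against 2 and 10 in hypothalamus. Smad7, the inhibitory SMAD, fell by 1.42 in cortex and changed by -0.26 in hypothalamus, and Id1, a BMP target, changed by -0.42 and 0.47. The hypothalamus calls of Bhlhe40, Nr1d1, Smad7 and Id1 were lost without the block (adjusted p = 0.306, 0.201, 0.418 and 0.0779, limma).

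Genes that rose in cortex and not in hypothalamus were many, with a median change of 0.34 in cortex against -0.01. The 6 with the largest differences were Cacnb2, a calcium channel subunit (0.99 in cortex, -0.24 in hypothalamus), Mical2, an actin oxidase (1.45 and 0.28), Cyp1b1, a steroid and retinoid oxidase (1.46 and 0.29), Atxn1, the ataxin-1 corepressor (1.15 and 0.00), Cyp4f15, a fatty acid hydroxylase (1.45 and 0.36), and Gpr17, a receptor of committed oligodendrocyte precursors (1.18 and 0.12). Cacnb2 had 4.95, 6.07 and 7.78 RPM in cortex with dex, against 1.71, 2.66 and 2.90 RPM with vehicle, and 7.09, 9.0 and 11.2 RPM in hypothalamus with dex, against 8.49, 10.8 and 13.4 RPM with vehicle, so that the medians of the regions lay closer with dex. Atxn1 rose by 0.95 to 1.44 in the 6 cortex cultures and changed by -0.34 to 0.32 in those of hypothalamus. Mical2 rose most in Female cortex replicates 2 and 3, by 3.03 and 2.36, against 0.50 to 1.01 in the other 4 cortex cultures. Without the culture block Cacnb2 kept its called difference and the other 5 lost theirs, with adjusted p-values by limma of 0.0527 for Mical2, 0.105 for Cyp1b1, 0.0692 for Atxn1, 0.0965 for Cyp4f15 and 0.571 for Gpr17. The Cyp4f15 difference was also lost with edgeR (adjusted p = 0.0717), and its hypothalamus rise was called by limma with array weights (0.44, 0.0143) and without Female hypothalamus replicate 2 (0.51, 0.0172).

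Oligodendrocyte lineage genes rose in cortex in 10 of 11 cases and in hypothalamus in 1, with median changes of 0.44 and 0.02, where 34.9% and 13.4% of all genes rose. Olig2, a factor of the lineage, had 389, 567 and 604 RPM in cortex with dex, against 302, 383 and 422 RPM with vehicle, and 371, 419 and 487 RPM in hypothalamus with dex, against 367, 444 and 503 RPM with vehicle. Its changes were 0.50 and -0.08. Pdgfra, the growth factor receptor of the precursors (0.64 and 0.02), and Sox10, a lineage factor (0.52 and -0.10), rose in cortex. Without the block 3 of the 11 were called as rising in cortex, where 4846 of all 13861 genes were called in either direction. The cortex calls of Pdgfra (adjusted p = 0.373) and Sox10 (0.636) were lost by limma, as were their differences (0.653 and 0.767). In bulk RNA more cells of the lineage and more RNA per cell cannot be told apart. The summed level of the list was 2209 to 3539 RPM in cortex dex libraries, against 1499 to 2584 RPM in cortex vehicle libraries, and 1315 to 1971 RPM in hypothalamus dex libraries, against 1318 to 2072 RPM in hypothalamus vehicle libraries. Astrocyte genes rose in 8 of 10 cases in cortex and 4 of 10 in hypothalamus. Gjb6, a connexin, rose in both, by 2.56 and 2.60, and Gfap, the astrocyte filament, rose alike, by 0.76 and 0.70, whereas Slc1a2, a glutamate transporter, rose by 0.62 in cortex with 0.06 in hypothalamus. The Slc1a2 difference was lost without the block (adjusted p = 0.264, limma). Endothelial genes were low: 3 of 9 markers passed the filter, with sums of 3.79 to 5.04 RPM in cortex dex, 5.52 to 9.69 RPM in cortex vehicle, 7.95 to 39.0 RPM in hypothalamus dex and 9.73 to 42.1 RPM in hypothalamus vehicle libraries, and Cdh5 had at most 0.0705 RPM. Of 9 contractile and mural markers 5 passed it, and these 5 were lower in cortex in both treatments. Their list summed to 11.8 to 19.5 RPM in cortex dex and 80.1 to 124 RPM in hypothalamus dex libraries. With vehicle the sums were 15.7 to 23.8 RPM in cortex and 61.7 to 157 RPM in hypothalamus.

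Many cell cycle genes rose slightly in cortex, but not all S phase genes did. Median log2 changes of the 6 cortex cultures were 0.54 for Top2a and 0.50 for Ccnb1. They were -0.06 for Mcm2, -0.24 for Mcm7 and -0.15 for Pcna, but 0.30 for Rrm1. Of 25 S phase and mitosis genes, 15 rose and 1 fell in cortex, where 34.9% of all genes rose, and 3 rose and 0 fell in hypothalamus, near the 13.4% of all genes that rose there. Mki67, the proliferation antigen, had 338, 724 and 920 RPM in cortex with dex, against 270, 541 and 639 RPM with vehicle, and 682, 830 and 920 RPM in hypothalamus with dex, against 678, 925 and 997 RPM with vehicle. Its changes were 0.47 and -0.08, groups overlapped in both regions, and the difference of 0.56 was lost without the block. The cortex call of Mki67 was lost there too (adjusted p = 0.0656, limma). Replication-dependent histone transcripts rose in both, 22 of 25 in cortex and 15 of 25 in hypothalamus with 0 falling in either, and 8 rose alike. Hist1h1b, a linker histone, rose by 1.14 in cortex, and its hypothalamus change of 0.26 was not called without the block (adjusted p = 0.479, limma). Reads of histone copies cannot be assigned with certainty, and Hist2h2bb had 204 to 760 RPM in cortex libraries against at most 0.197 RPM in hypothalamus. The list of G1 genes and cell cycle inhibitors had 8 of 20 higher and 5 lower in cortex, and 4 higher and 1 lower in hypothalamus. Beside these stand 34.9% and 23.2% of all genes in cortex, and 13.4% and 16.5% in hypothalamus. The list also held cyclins. Among its cyclins, Ccnd1 fell by 0.89 in cortex with a hypothalamus change of -0.20, and Ccnd2, with a cortex change of -0.12, fell by 0.71 in hypothalamus. Neither of these 2 differences was called without the block. Ccnd3 rose alike in both, by 0.36 and 0.33, and Ccne1 (-0.07 and 0.02) and Ccne2 (0.17 and 0.16) passed no test.

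Genes lowered in hypothalamus and not in cortex changed little, with a median of -0.29 and none reaching a difference of 1. The 6 with the largest differences were 4930546H06Rik, Gm14077, Gpr149, an orphan receptor, Slc30a10, a manganese exporter, 2810459M11Rik, and Megf10, an engulfment receptor of astrocytes. 4930546H06Rik had 15.9, 22.2 and 27.8 RPM in cortex with dex, against 16.7, 20.7 and 25.2 RPM with vehicle, and 5.12, 6.26 and 8.47 RPM in hypothalamus with dex, against 7.94, 10.4 and 16.2 RPM with vehicle. It fell in all 6 hypothalamus cultures by 0.37 to 0.86, and the difference was 0.75 (adjusted p = 0.000323, limma). The differences of the other 5 ranged from 0.67 to 0.74 and were not called without the block, nor were their hypothalamus falls. Cortex rises were called by limma with array weights for Gm14077 (0.38, adjusted p = 0.00466) and Megf10 (0.24, 0.0365) and with edgeR for Gpr149 (0.45, 0.0206), so that these 3 are not settled as unchanged in cortex. Of 12 neural stem cell genes, 3 fell and 4 rose in cortex, and 7 fell and 0 rose in hypothalamus. Among all genes 23.2% and 34.9% fell and rose in cortex, and 16.5% and 13.4% in hypothalamus. For the 12 genes, 6 differences were higher in cortex and 0 lower, against 25.2% and 15.1% over all genes. Of these 12, 2 (Sox2 and Nes) belonged to the genes lowered in hypothalamus and not in cortex. Sox2, a factor of stem cell identity, had 347, 366 and 480 RPM in cortex with dex, against 287, 319 and 620 RPM with vehicle, and 255, 288 and 308 RPM in hypothalamus with dex, against 331, 355 and 488 RPM with vehicle. The cortex change was 0.05, and it fell by 0.42 in hypothalamus, where treatments did not overlap, a call lost without the block (adjusted p = 0.095, limma). The Sox2 difference was not called without the block either (adjusted p = 0.131, limma). Msi1, an RNA-binding protein, fell by 0.34 in cortex and 0.62 in hypothalamus, with a difference that was lost without the block (adjusted p = 0.516, limma), and Nes, the stem cell filament nestin, changed by -0.03 in cortex and fell by 0.29 in hypothalamus. Sox9, a gliogenic factor, fell alike, by 1.01 in cortex and 0.80 in hypothalamus.

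Small nuclear, small Cajal body and small nucleolar RNAs, which guide splicing and ribosomal RNA modification, separated the regions as a kind. Of 147 tested, 110 fell and 0 rose in cortex, 37 rose and 1 fell in hypothalamus, 112 differences were lower in cortex and 24 genes went in opposite directions. Across all genes, 23.2% fell and 34.9% rose in cortex, and 13.4% rose and 16.5% fell in hypothalamus. A lower difference was called for 15.1% of all genes and opposite directions for 3.61%. Scarna10, the most abundant, had 316, 353 and 526 RPM in cortex with dex, against 343, 398 and 585 RPM with vehicle, and 278, 399 and 476 RPM in hypothalamus with dex, against 178, 247 and 406 RPM with vehicle. Treatments overlapped in both regions, and the changes were -0.15 and 0.57. With vehicle 136 of the 147 were higher in cortex, where 27% of all genes were, and the median difference was 1.19. Snora73b was listed at 0 in all 12 hypothalamus libraries. In cortex it had means of 179.9 RPM with dex and 258.2 RPM with vehicle, and it is counted among those that fell there. Without the culture block 57 lower differences were called, of 927 over all genes tested. The ribosomal share of the libraries differed along with them: it was 1.28% to 2.23% in cortex dex, 2.01% to 2.99% in cortex vehicle, 30.5% to 42.8% in hypothalamus dex and 30.4% to 39.8% in hypothalamus vehicle libraries. The part of that share in the result was not tested. Of 12 mitochondrially encoded genes 6 fell and 1 rose in cortex, where 23.2% of all genes fell, and 2 fell and 0 rose in hypothalamus, near the 16.5% of all genes.

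The cultures of a region answered alike, more so in cortex. Across 8691 genes, which are not independent replicates, the correlation between the log2 changes of 2 cultures was 0.76 to 0.955 within cortex, 0.433 to 0.812 within hypothalamus, and 0.202 to 0.546 between a cortex and a hypothalamus culture. Female cortex replicates 2 and 3 stood somewhat apart from the other 4 cortex cultures (0.76 to 0.86, against 0.865 to 0.955 among those 4), and Female hypothalamus replicate 2 was the least like the others of its region (0.433 to 0.734). Without Female cortex replicates 2 and 3 the difference was called for 5343 genes, of which 4843 were shared with the full set. A response term for each sex gave no gene whose region difference changed with sex (0 by limma, 646 at an unadjusted p under 0.05). In cortex and in hypothalamus 0 genes differed between the sexes in their response (654 and 510 unadjusted). By region, the female cultures alone gave 2073 called differences and the male cultures alone 3750.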

How the data were processed

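RNA of 24 neurosphere samples was sequenced by the submitters from total RNA with a stranded kit on 2 lanes per sample. The submitters' processing notes name TopHat2 2.0.13 and 2.0.9, HTSeq and GRCm38, with no role or order, and no strand setting is stated there. The deposited tables, 1 for each region and sex, hold 38924 gene entries as a signal per library, which the authors scaled per 1000000 reads. The authors' means, fold ratios (edgeR, per the file headers), log2 ratios and p-values, also deposited, were not used, and 0 per-sample columns were left unused.

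Each value was a whole multiple of the worth of 1 read (100% of values, tolerance 0.01 read), so whole reads were recovered. Of the 27 entries whose names had become dates, 4 sharing a name were left out, which left 38920. The 4 ribosomal entries were dropped and all libraries rescaled together by TMM (edgeR 4.0.16, R 4.3.3). Genes with at least 1 RPM in at least 6 libraries (13861) were fitted as log2(RPM + 1) in limma 3.58.1 with trended variance. The model held the culture (table and replicate number, 12 levels) as a block and a dex term for each region, and their difference was adjusted by Benjamini-Hochberg. Fold changes on this scale understate those of low genes. Because the tables were scaled separately by the authors, level differences between regions rest on the joint rescaling. The labels do not state that a replicate number marks a shared culture. Of the 12 cultures, 11 had a dex and a vehicle library whose deviations correlated above 0.1. In Male cortex replicate 2 the correlation was -0.104. Fits without the block are therefore given beside many results, but not all. Also lost without it, by limma, were the cortex calls of Gbx2 (adjusted p = 0.172), Gpr17 (0.237), Ccnd1 (0.14) and Msi1 (0.132). The hypothalamus calls of Ccl2 (0.099), Ccnd2 (0.316) and Dnajc3 (0.2) were lost as well. edgeR and DESeq2 1.42.0 on recovered reads were alternatives. The fit was also run on simulated counts in which the libraries of a culture shared the same starting level, so that run cannot bear on the pairing. The members and gene lists were chosen with earlier results of these data known.

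Named genes had a mean of at least 50 reads in a group and were the 10 opposite genes with the largest change in the weaker region, 6 each of the classes called in 1 region or larger in 1 region, 8 alike genes, the 10 smallest p-values of the difference, 12 fixed genes and up to 4 members of each list with the largest difference. Other list members and small RNAs named were chosen after their values were seen. Some genes that the rule names are not reported here. Gene coordinates are those of GENCODE M21, which matched 13111 genes, and promoters are from RefSeq (GRCm38.p6, 10534 genes). Figures were drawn with matplotlib 3.10.9 in Python 3.11.15.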

Additional observations from a re-analysis of the deposited data

Results flagged for a closer look

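Among the per-culture log2 changes of 67 named genes in each region (134 groups of 6 cultures), 9 had a culture far from the other 5, and chance gives about 1 in 20. Female hypothalamus replicate 2 was the distant culture in 4: Cyp4f15 changed by -0.34 there (0.37 to 0.66 in the others), 2810459M11Rik by -1.10 (-0.61 to -0.44), Smox by 0.92 (1.47 to 1.76) and Dusp1 by 0.65 (0.17 to 0.32). Female cortex replicate 2 was the distant one in 3: Cebpd changed by -0.12 (0.84 to 1.18 in the others), Fam101b by 1.69 (0.65 to 0.95) and Dusp1 by -2.53 (-1.57 to -1.27). In Female cortex replicate 3 Atf3 changed by -4.09 (-5.29 to -5.01), and in Male cortex replicate 1 Hif3a changed by 4.39 (4.71 to 4.90).

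The response to dexamethasone differed between cortex and hypothalamus, by the test of the difference itself, for 5587 genes, and 501 genes were called in opposite directions.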

How the results depend on the processing

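Without the replicate block the difference was called for 2014 genes, each of them also called with the block and with an unchanged sign, the cortex response for 4846 and the hypothalamus response for 729. The classes then held 27 opposite, 1712 cortex only, 77 hypothalamus only, 62 larger in cortex, 8 larger in hypothalamus and 246 alike, and of 471 results on named genes 123 lost their call; the cause was not tested, and the pairing behind the block rests on the replicate numbers. The 6 female cultures alone gave 2073, 5059 and 1162 calls for the difference, cortex and hypothalamus, and classes of 63, 1615, 154, 107, 17 and 337 in the same order. The 6 male cultures alone gave 2286 hypothalamus calls, 199 opposite, 391 hypothalamus only, 357 larger in cortex, 44 larger in hypothalamus and 722 alike, with fewer samples in each fit. At an adjusted p under 0.01 there were 3662 differences, 2369 hypothalamus calls, 181 opposite, 352 hypothalamus only, 287 larger in cortex, 38 larger in hypothalamus and 859 alike. With no filter on low values 324 were opposite and 59 larger in hypothalamus, and with a stricter limit on the interval 868 were alike. Diras2 reversed, with a region difference of 0.43 when 5 RPM was added, against -0.02 with 1 RPM.

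Leaving out each culture gave 4917 to 5611 differences, 7291 to 8346 cortex and 3264 to 4238 hypothalamus calls, 344 to 513 opposite, 3023 to 3585 cortex only, 505 to 751 hypothalamus only, 493 to 692 larger in cortex, 67 to 102 larger in hypothalamus and 1174 to 1382 alike. Level differences ranged over 6744 to 7743 genes with dex and 7226 to 8161 with vehicle. edgeR called 5268 differences (4688 shared) and DESeq2 4750 (4391 shared). The lower differences of immediate-early, stress response and p53 genes numbered 24, 18 and 12 without the block, of 927 over all genes tested. Hypothalamus depth (10.13 M reads at the lowest) limits genes near 1 RPM; with all libraries thinned to that depth the difference was called for 4872 genes, 4522 of them shared.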
